A study of Danio rerio with 42 samples.

Results

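Zebrafish larvae that had met both ethanol and a rich diet were set against larvae that had met neither. The doubly exposed group, EAE HFHC (embryonic alcohol exposure, high-fat, high-cholesterol diet), was kept in fish water with 1% EtOH from 12 hpf to 5 dpf and fed the HFHC diet from 6 dpf. The control ND larvae were kept at 0% EtOH and fed the normal diet (ND). Both groups were of the AB strain and were collected at 13 dpf, and each sample was a homogenate of 15 whole larvae of mixed sizes. The study reports that larvae exposed to EtOH were still shorter than controls at this age and caught up later. The groups may therefore differ in body length and growth as well, and the part of these in the results below was not tested. The comparison holds 6 samples, 3 of each group, out of 12 larval and 42 samples in the series. Control HFHC and EAE ND larvae, with 3 samples each, carried 1 of the exposures alone and were fitted in the same model. ND was hatched artemia, and the HFHC diet was artemia with resuspended whole egg powder on top. The composition and the amount of food therefore cannot be told apart, and the comparison itself changes ethanol and diet together.

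Ethanol during development leaves lasting changes in growth and metabolism, and fish are a model for its effects because embryos take it up from the water. Egg powder brings triglyceride, protein and cholesterol. Animal cells hold back their own cholesterol synthesis when sterol is plentiful, through the transcription factor encoded by srebf2 and its retainer encoded by insig1. Fatty acids act on nuclear receptors that turn on genes of fat oxidation, and cortisol acts on the glucocorticoid receptor, whose targets include fkbp5 and klf9. A homogenate of whole larvae mixes these responses over liver, gut, muscle, skeleton, brain, eye and blood. A lower value of a tissue's genes can stand for fewer cells of that tissue or for less RNA per cell, which cannot be told apart here.

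The libraries held 19722769, 21009085 and 20280685 counts in EAE HFHC larvae, against 22304203, 18582927 and 39115243 counts in control ND larvae. Over all 66 pairs of the 12 larval libraries the counts differed by more than counting error, with a chi-square of 4.49 to 19.3 per degree of freedom, so no pair looked like a single library. The labels call the replicates separate tubes of pooled larvae. The p-values therefore measure the spread between such tubes, which may be partly technical. The study assigned siblings of the same clutches to the groups, housed larvae in shared tanks and gave the egg powder by tank. The clutches and tanks behind each tube are not given in the sources used here. A tank effect therefore cannot be told apart from an effect of the group. Along the leading principal component, with 28.2% of the variance, the HFHC samples lay apart from the ND samples. On the next component, with 14.6%, control ND replicate 2 lay at one end of all 12 larval samples.

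Of 25935 genes in the table, 6278 had too few counts to be tested. Of the 19657 genes tested, 2849 (14.5%) differed between EAE HFHC and control ND larvae in the quasi-likelihood test of edgeR, with an adjusted p-value under 0.05. In EAE HFHC larvae 1741 genes (8.86%) were higher and 1108 genes (5.64%) were lower. Most differences were small. The median log2 fold change of the genes that rose was 0.45, that of the genes that fell was -0.33, and the median over all genes tested was 0.015. Only 162 of the genes that rose and 45 of those that fell passed a log2 fold change of 1 in size. Leaving out EAE HFHC replicate 2 gave a count of 1558 and leaving out EAE HFHC replicate 3 gave 1892. Levels are given as CPM, read counts scaled to the size and composition of each library, unless named as TPM, which the authors also scaled to transcript length. EAE HFHC and control ND samples did not overlap in CPM for 6881 of the genes tested (35%), and for 2784 of the 2849 that differed.

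The 34 gene lists that were written for tissues and pathways are described by how many members passed this test, to be read against those shares of all genes. The lists were chosen with earlier results of these data known, so their order is a description and no independent test. By share of members called higher, cholesterol synthesis, leukocyte and inflammation genes, the circadian clock and the glucocorticoid-responsive genes stood highest. By share called lower, cytosolic chaperones, collagen and cartilage genes and skeletal muscle genes stood highest. In the plot of gene lists, the proteasome is the list without a call.

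**Figure D1:**
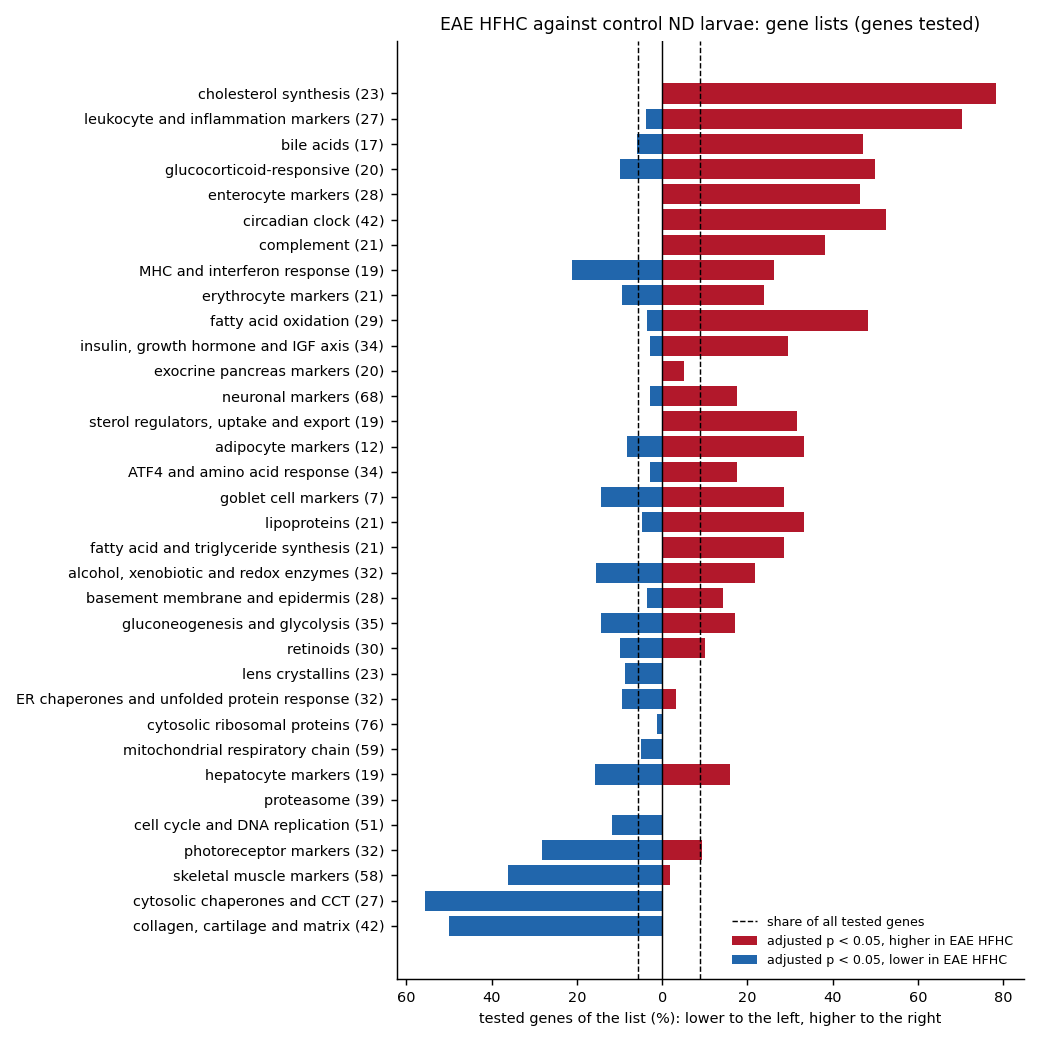
Share of the tested genes of each list with an adjusted p-value under 0.05 in EAE HFHC against control ND larvae. Bars to the right give the percentage that was higher and bars to the left the percentage that was lower, and dashed lines mark 8.86% and 5.64%, the shares over all 19657 genes. The number of genes tested is in brackets, and lists run from the highest median log2 fold change at the top (cholesterol synthesis, 0.48) to the lowest (collagen, cartilage and matrix, -0.26).

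The leading genes were picked from those past the threshold whose groups did not overlap, so their lack of overlap adds no support. Genes with clone names were left out, and those ranked by fold change had at least 10 CPM in the higher group. Among them, the genes with the largest rise included ifit14 and ifit15, neighbours that encode interferon-induced tetratricopeptide repeat proteins. The gene ifit14 (ENSDARG00000071012, chromosome 17 from 23592592 to 23596602) had 11.6, 9.86 and 12.3 CPM in EAE HFHC larvae, against 2.05, 3.11 and 2.22 CPM in control ND larvae. Each EAE HFHC sample lay above the highest control ND sample (log2 fold change 2.22, standard error 0.17, edgeR adjusted p = 1.02e-06). Its neighbour ifit15 (ENSDARG00000043584, chromosome 17 from 23587171 to 23589186) had 23.2, 13.5 and 20.5 CPM in EAE HFHC larvae, against 3.51, 7.15 and 5.37 CPM in control ND larvae. These groups did not overlap either (log2 fold change 1.85, standard error 0.20, edgeR adjusted p = 2.54e-05), although reads of such similar genes could have been shared between them in counting. Both genes were also high in control HFHC larvae, where their log2 fold changes against control ND were 1.85 and 1.298.

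The pyruvate dehydrogenase kinases, which turn off the entry of pyruvate into the citric acid cycle, were higher for pdk2a and pdk2b. The gene pdk2b (ENSDARG00000059054, chromosome 19 from 5756655 to 5769491) had 114, 149 and 143 CPM in EAE HFHC larvae, against 31.6, 39.5 and 37.1 CPM in control ND larvae. The lowest EAE HFHC sample stood far above the highest control ND sample (log2 fold change 1.91, standard error 0.19, edgeR adjusted p = 1.15e-05). Its paralog pdk2a rose by 1.41 (standard error 0.16, edgeR adjusted p = 2.99e-05). The gene angptl4 (ENSDARG00000035859, chromosome 2 from 24881111 to 24886867), whose product inhibits lipoprotein lipase, had 275, 269.9 and 288 CPM in EAE HFHC larvae, against 125, 132 and 127 CPM in control ND larvae. The groups lay far apart beside the small spread of their replicates, and the gene shared the smallest adjusted p of the comparison with clca1 (log2 fold change 1.11, standard error 0.058, edgeR adjusted p = 2.27e-08).

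The other leading rises included targets of retinoic acid and cortisol. The retinoic acid hydroxylase gene cyp26a1 (ENSDARG00000033999, chromosome 12 from 8916918 to 8920510) had 103, 71.9 and 70.4 CPM in EAE HFHC larvae, against 26.0, 30.1 and 25.7 CPM in control ND larvae. The groups were well apart, with EAE HFHC replicate 1 the highest (log2 fold change 1.59, standard error 0.16, edgeR adjusted p = 1.14e-05). The gene fkbp5 (ENSDARG00000028396, chromosome 6 from 41098522 to 41118517), which encodes a co-chaperone of the glucocorticoid receptor and is induced by cortisol, had 420.4, 439.8 and 427 CPM in EAE HFHC larvae, against 212, 159.9 and 175 CPM in control ND larvae. All EAE HFHC samples were above all control ND samples (log2 fold change 1.24, standard error 0.080, edgeR adjusted p = 1.89e-07). The lectin gene itln2, the nuclear protein gene csrnp1a and the transcription factor gene tfcp2l1 were higher by 1.45, 1.44 and 1.57 on the log2 scale, each without overlap. The chloride channel regulator gene clca1 and the rhophilin gene rhpn2 rose by 1.14 and 1.12.

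Among genes past the threshold without overlap, with no clone name and at least 10 CPM in the higher group, a fetuin gene fell furthest. Fetuins are glycoproteins that the liver secretes into blood, where they bind calcium phosphate and modulate the insulin receptor. The gene ahsg1 (ENSDARG00000026764, chromosome 22 from 37920796 to 37927972) had 9.04, 11.3 and 9.63 CPM in EAE HFHC larvae, against 59.3, 66.4 and 58.9 CPM in control ND larvae. It was 6.13-fold lower in EAE HFHC larvae, with no overlap (log2 fold change -2.62, standard error 0.26, edgeR adjusted p = 1.24e-05). The second fetuin gene, ahsg2 (ENSDARG00000069293, chromosome 2 from 10336525 to 10343921), had 78.2, 103 and 104 CPM in EAE HFHC larvae, against 359.5, 491 and 400.4 CPM in control ND larvae. Its groups did not overlap either (log2 fold change -2.13, standard error 0.22, edgeR adjusted p = 1.37e-05).

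Adult-type globin genes were also lower, and both are low in whole larvae. The gene hbaa1 (ENSDARG00000097011, chromosome 3 from 54845443 to 54851382) had 5.74, 6.93 and 5.06 CPM in EAE HFHC larvae, against 17.0, 25.4 and 23.9 CPM in control ND larvae, and hbba1 had 5.79, 5.91 and 4.51 CPM in EAE HFHC larvae, against 16.9, 32.2 and 30.7 CPM in control ND larvae. Neither overlapped between the groups (log2 fold change -1.90, standard error 0.31, edgeR adjusted p = 0.000769 for hbaa1, and log2 fold change -2.30, standard error 0.37, edgeR adjusted p = 0.000802 for hbba1). These genes have near-identical copies among which reads may have been split, and neither call held in DESeq2, where the adjusted p was 0.0792 for hbaa1 and 0.0501 for hbba1. Both were lower still in EAE ND larvae, with log2 fold changes of -3.77 and -4.07 against control ND.

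The other leading falls were in genes with unlike roles. The AP-1 repressor gene jdp2b (ENSDARG00000020133, chromosome 20 from 46682958 to 46690971) had 10.5, 11.4 and 12.0 CPM in EAE HFHC larvae, against 34.7, 42.3 and 43.8 CPM in control ND larvae. Every EAE HFHC sample was below every control ND sample (log2 fold change -1.83, standard error 0.21, edgeR adjusted p = 4.07e-05). The alcohol dehydrogenase gene adh8a (ENSDARG00000091211, chromosome 13 from 12521500 to 12527843) had 11.2, 10.9 and 8.67 CPM in EAE HFHC larvae, against 24.2, 47.7 and 27.3 CPM in control ND larvae. The fall was clear, although control ND replicate 2 lay well above its group (log2 fold change -1.67, standard error 0.26, edgeR adjusted p = 0.000525). The notochord gene cmn, which encodes calymmin, fell by 1.47 and the class I MHC gene mhc1uba fell by 1.79 on the log2 scale.

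By smallest p-value the genes that fell were led by foxq1a, tgm2a, col9a1b and matn3a. The forkhead factor gene foxq1a (ENSDARG00000030896, chromosome 2 from 848413 to 849804) had 14.0, 14.3 and 13.8 CPM in EAE HFHC larvae, against 29.8, 33.7 and 29.9 CPM in control ND larvae. The replicates within each group were close and the groups far apart (log2 fold change -1.14, standard error 0.076, edgeR adjusted p = 1.94e-07). The transglutaminase gene tgm2a fell by 0.91 on the log2 scale (edgeR adjusted p = 1.02e-06).

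**Figure D2:**
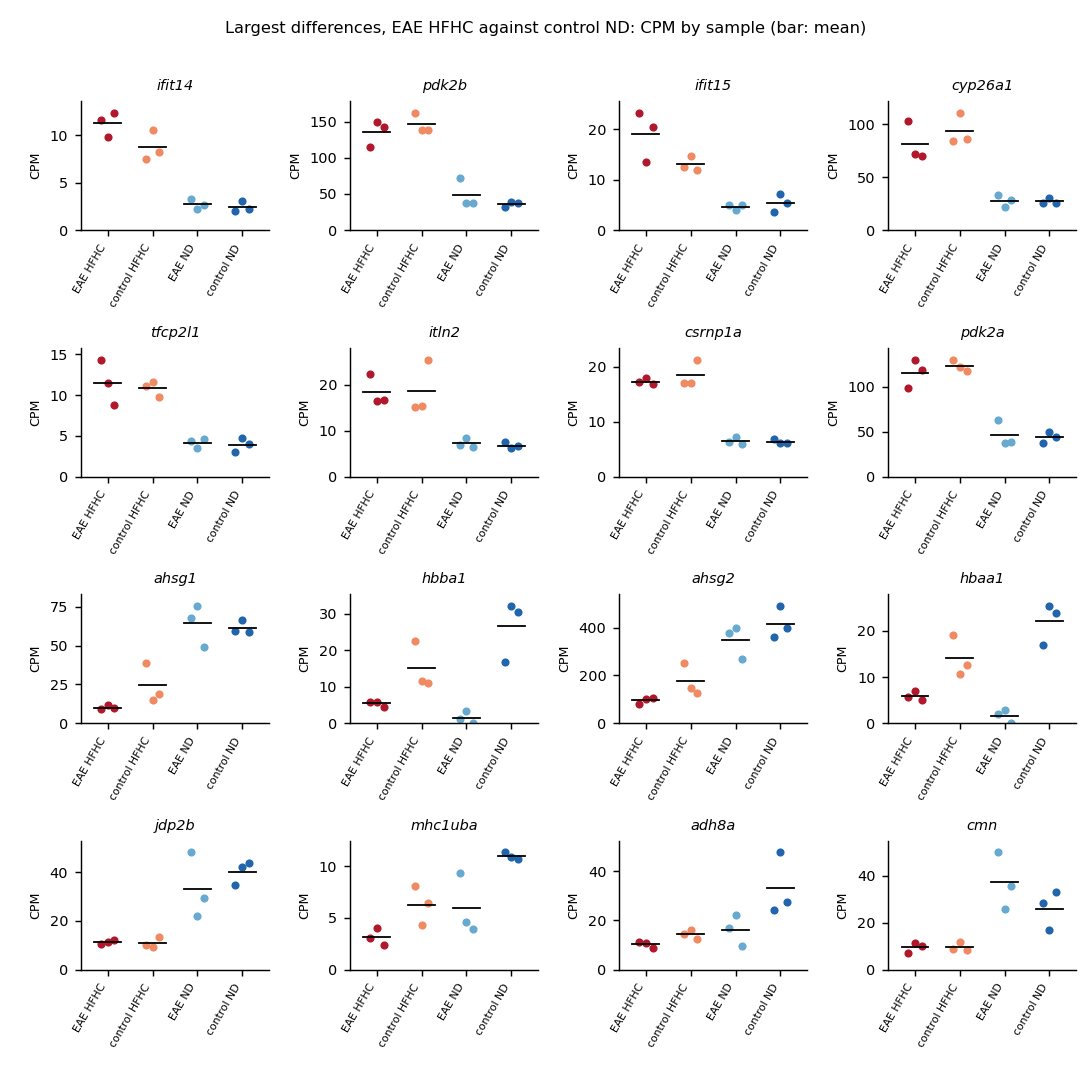
CPM of the 8 genes with the largest rise and the 8 with the largest fall in EAE HFHC against control ND larvae. They were ranked among genes past the threshold without overlap, with no clone name and at least 10 CPM in the higher group. Points are samples and bars group means, in EAE HFHC, control HFHC, EAE ND and control ND larvae, on linear axes from 0. In each of the upper 8 panels both HFHC groups sit above both ND groups, while hbaa1 and hbba1 are lowest in EAE ND larvae.

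Every comparison against control ND larvae shares the same 3 control samples, so the single exposures are given only side by side. For the 8 leading rises, the log2 fold change in control HFHC larvae lay between 1.298 (ifit15) and 2.02 (pdk2b), and that in EAE ND larvae between -0.20 (ifit15) and 0.43 (pdk2b). For ahsg1 it was -1.33 in control HFHC and 0.067 in EAE ND larvae, beside -2.62 in EAE HFHC larvae. The step from control HFHC to EAE HFHC larvae, -1.29, did not pass the test for ahsg1 (edgeR adjusted p = 0.0678). The enzyme gene adh8a had -1.19 in control HFHC and -1.003 in EAE ND larvae, so that either exposure alone went with a lower value, of which the ethanol value missed the threshold (edgeR adjusted p = 0.0533).

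Genes of cholesterol synthesis rose along nearly the whole pathway. Of the 23 genes, from the condensing enzyme acat2 to the last reductases, 18 were higher, none was lower and 5 did not pass, with a median log2 fold change of 0.48. The count stayed between 16 and 19 when any sample of the comparison was left out. Summed over the list, the level was 2128 to 2563 TPM in EAE HFHC larvae, against 1490 to 1774 TPM in control ND larvae, without overlap.

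Among the early steps, which build mevalonate and join isoprene units, fdps and mvda passed in every setting tried. The gene fdps (ENSDARG00000040890, chromosome 16 from 14103231 to 14133011), whose enzyme makes farnesyl diphosphate, had 246, 187 and 202 CPM in EAE HFHC larvae, against 133, 114 and 141 CPM in control ND larvae. All EAE HFHC samples were higher (log2 fold change 0.71, standard error 0.10, edgeR adjusted p = 0.000356). The thiolase gene acat2, at the entry to the pathway, had 59.9, 49.8 and 55.0 CPM in EAE HFHC larvae, against 30.9, 28.2 and 34.8 CPM in control ND larvae. It too was apart in every sample (log2 fold change 0.80, standard error 0.089, edgeR adjusted p = 2.99e-05). The genes of the reductase that sets the pace of the pathway did not pass. The gene hmgcra had 393, 397 and 399.5 CPM in EAE HFHC larvae, against 361, 338 and 356 CPM in control ND larvae, with its groups narrowly apart (log2 fold change 0.17, standard error 0.072, edgeR adjusted p = 0.125). Its paralog hmgcrb overlapped, with a log2 fold change of -0.038 (edgeR adjusted p = 0.677).

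The later steps, which fold squalene into lanosterol and trim it to cholesterol, rose as well. Lanosterol synthase, lss (ENSDARG00000061274, chromosome 9 from 38671985 to 38690596), had 69.7, 56.7 and 57.5 CPM in EAE HFHC larvae, against 37.8, 33.7 and 41.7 CPM in control ND larvae. No control ND sample reached the EAE HFHC range (log2 fold change 0.69, standard error 0.095, edgeR adjusted p = 0.000199). The sterol reductase gene tm7sf2 had 52.3, 41.7 and 45.9 CPM in EAE HFHC larvae, against 27.09, 24.4 and 27.7 CPM in control ND larvae, likewise without overlap (log2 fold change 0.81, standard error 0.097, edgeR adjusted p = 5.68e-05). The desaturase gene sc5d rose by 0.75. The lamin B receptor gene lbr, whose product shares a sterol reductase activity with that of tm7sf2, had a log2 fold change of 0.020 (edgeR adjusted p = 0.876). In the single exposures the medians of the list were 0.15 in control HFHC and 0.12 in EAE ND larvae, both against control ND.

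**Figure D3:**
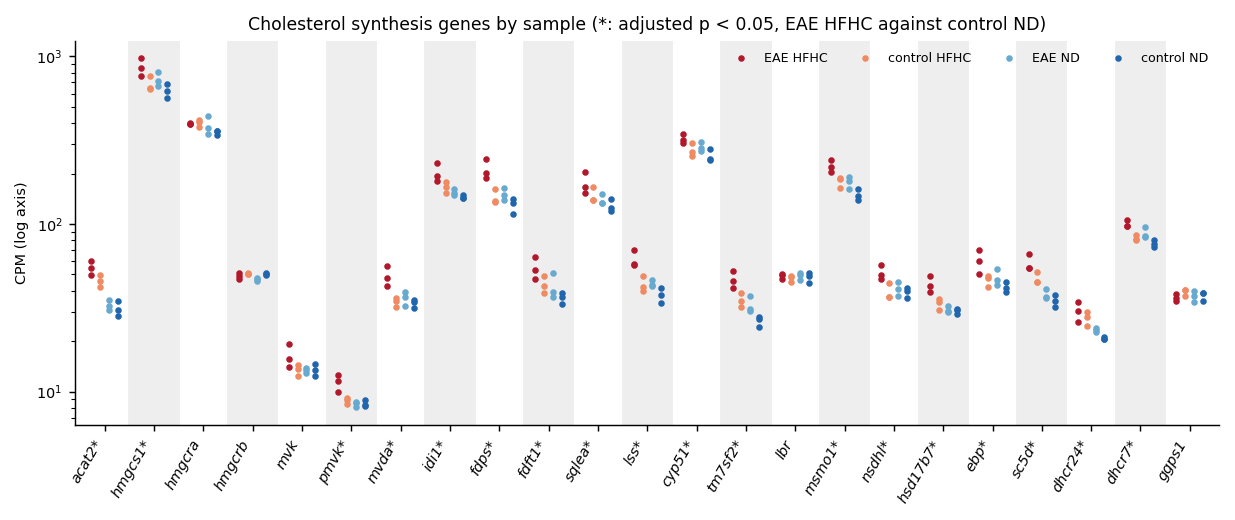
CPM of the 23 cholesterol synthesis genes in every larval sample, in pathway order from left to right, on a log axis. For each gene the 3 samples of EAE HFHC, control HFHC, EAE ND and control ND larvae are drawn from left to right, and a star marks an adjusted p-value under 0.05 between EAE HFHC and control ND. The mean of EAE HFHC larvae is the highest of the 4 groups for all 18 starred genes, and hmgcrb, lbr and ggps1 lie level.

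Of 19 regulators and transporters of sterols tested, 6 were higher and none was lower, with a median of 0.17. The gene insig1, which holds the sterol sensor in the endoplasmic reticulum, had 98.0, 95.3 and 96.2 CPM in EAE HFHC larvae, against 47.8, 56.8 and 57.2 CPM in control ND larvae. The groups were well apart (log2 fold change 0.84, standard error 0.11, edgeR adjusted p = 0.000162). The lysosomal exporter gene npc1 and the LDL receptor gene ldlra rose by 0.43 and 0.58, and srebf2 itself by 0.41. In control HFHC larvae insig1, npc1, ldlra and srebf2 rose by 0.93, 0.57, 0.66 and 0.34 against the same controls. None of them passed the test between EAE HFHC and control HFHC larvae (lowest edgeR adjusted p 0.526). The median of this list was 0.19 in control HFHC and 0.076 in EAE ND larvae, both against control ND.

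In fatty acid and triglyceride synthesis, 6 of 21 genes were higher and none was lower, with a median of 0.075. The median became 0.029 if EAE HFHC replicate 1 was dropped and 0.14 if replicate 2 of that group was dropped. The genes that rose included elongases, the acetyl-CoA carboxylase gene acacb and the acyltransferase gene dgat2, which finishes triglyceride. The gene elovl6 had 83.3, 66.6 and 68.8 CPM in EAE HFHC larvae, against 33.6, 36.8 and 36.8 CPM in control ND larvae, apart in every sample (log2 fold change 1.03, standard error 0.099, edgeR adjusted p = 8.92e-06). The genes elovl1a, acacb and dgat2 rose by 0.68, 0.63 and 0.71. Against the same controls, elovl6, elovl1a, acacb and dgat2 rose by 0.91, 0.96, 0.53 and 0.87 in control HFHC larvae. None of them passed the test between EAE HFHC and control HFHC larvae (lowest edgeR adjusted p 0.238). The list had a median of 0.16 in control HFHC and 0.017 in EAE ND larvae, both against control ND. The synthase gene fasn had 154, 142 and 127 CPM in EAE HFHC larvae, against 158, 131 and 156 CPM in control ND larvae, which overlapped (log2 fold change -0.080, standard error 0.087, edgeR adjusted p = 0.583).

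Of the 19657 genes, 11 (0.056%) set EAE HFHC larvae apart from each of the 3 other larval groups in the same direction, 9 higher and 2 lower, at an adjusted p under 0.05 in all 3 tests. At an unadjusted p under 0.05 in all 3 tests there were 394. The named genes that rose were caspb, slc5a1, tmem97, lss, fdps and mvda, of which the last 3 make cholesterol precursors and tmem97 encodes a sterol-regulated membrane protein. The genes that fell were phkg1b and psmb8a. The remaining 3 were fgf4, which the naming rule left out, and 2 genes with clone names.

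The inflammatory caspase gene caspb (ENSDARG00000052039, chromosome 1 from 57315223 to 57329056) had 134, 147 and 146 CPM in EAE HFHC larvae, against 108, 115 and 87.0 CPM in control HFHC, 101, 106 and 98.1 CPM in EAE ND and 80.8, 90.1 and 89.5 CPM in control ND larvae. Its EAE HFHC samples were above all others, and the 3 log2 fold changes were 0.71 against control ND, 0.46 against control HFHC and 0.48 against EAE ND larvae (largest edgeR adjusted p 0.0321). The intestinal sodium-glucose transporter gene slc5a1 (ENSDARG00000013871, chromosome 10 from 17177667 to 17201797) had 219, 203 and 206 CPM in EAE HFHC larvae, against 162, 168 and 167 CPM in control HFHC, 160.4, 142 and 162 CPM in EAE ND and 111, 118 and 122 CPM in control ND larvae. Either exposure alone lay between the other groups for slc5a1, and EAE HFHC larvae were highest (largest edgeR adjusted p 0.0358).

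The mevalonate diphosphate decarboxylase gene mvda (ENSDARG00000099336, chromosome 18 from 31078889 to 31090423) had 56.2, 42.6 and 47.5 CPM in EAE HFHC larvae, against 31.8, 36.1 and 34.8 CPM in control HFHC, 32.3, 36.5 and 39.3 CPM in EAE ND and 34.1, 31.4 and 35.2 CPM in control ND larvae. Its log2 fold change was 0.023 in control HFHC and 0.099 in EAE ND larvae, beside 0.53 with both exposures (largest edgeR adjusted p 0.0365). Its interaction term, 0.41, did not pass (edgeR adjusted p = 0.178). Nor did that of any other named gene apart from all 3 groups (lowest edgeR adjusted p 0.0872, for phkg1b). For slc5a1 the term was -0.067 (edgeR adjusted p = 0.790). The immunoproteasome subunit gene psmb8a (ENSDARG00000001303, chromosome 19 from 7186913 to 7225623) had 0.799, 1.12 and 1.05 CPM in EAE HFHC larvae, against 3.20, 3.63 and 3.23 CPM in control HFHC, 3.23, 1.58 and 1.72 CPM in EAE ND and 3.92, 4.36 and 2.48 CPM in control ND larvae, all of them low. The EAE HFHC samples were below all others (largest edgeR adjusted p 0.0289).

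These 11 genes rested on few samples. Leaving out EAE HFHC replicate 1 gave a count of 0, leaving out EAE HFHC replicate 2 gave 4 and leaving out EAE HFHC replicate 3 gave 3, while the count was 9 on leaving out each of the control ND samples. Dropping control HFHC replicates 1, 2 and 3 in turn, a choice made after seeing the data, gave counts of 0, 2 and 18, and dropping an EAE ND sample gave 10 to 15. It was 37 with DESeq2, 30 with no filter on low counts and 1 with limma on log2(TPM + 1). The call of phkg1b between EAE HFHC and control ND larvae was itself lost without control ND replicate 3 (edgeR adjusted p = 0.0518).

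**Figure D4:**
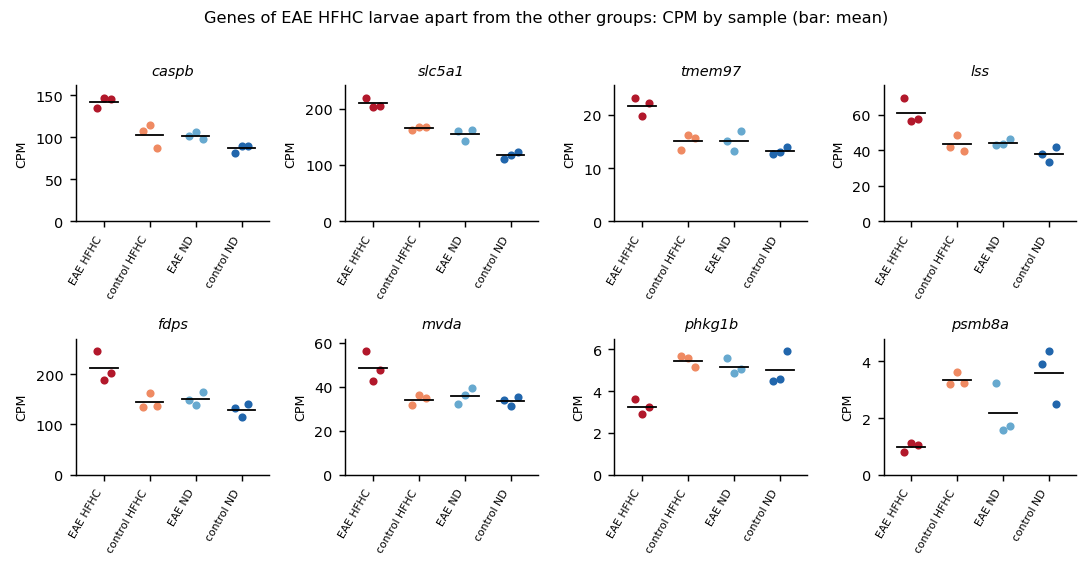
CPM by sample of the 8 named genes for which EAE HFHC larvae differed from each of the other 3 larval groups. Points are samples and bars group means, in EAE HFHC, control HFHC, EAE ND and control ND larvae, on linear axes from 0. EAE HFHC samples are highest for caspb, slc5a1, tmem97, lss, fdps and mvda, and lowest for phkg1b and psmb8a.

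Genes of fatty acid oxidation were higher for 14 of 29 members and lower for 1, with a median of 0.22. Their median was 0.18 in control HFHC and -0.038 in EAE ND larvae, both against control ND. The carnitine palmitoyltransferase gene cpt1ab, which admits fatty acids to mitochondria, had 129, 129.8 and 128 CPM in EAE HFHC larvae, against 77.3, 78.9 and 81.4 CPM in control ND larvae. All EAE HFHC samples were higher than all control ND samples (log2 fold change 0.70, standard error 0.056, edgeR adjusted p = 1.28e-06). Its muscle form cpt1b rose by 0.92 and the long-chain dehydrogenase gene acadvl by 0.36, while the acyl-CoA synthetase gene acsl1a fell by 0.36. Among lipoprotein genes 7 of 21 were higher and 1 was lower, with a median of 0.079. Dropping control ND replicate 1 or 2 made that median 0.0094 or 0.14, and dropping EAE HFHC replicate 1 made it 0.049. The apolipoprotein genes apobb.2, apoeb and apoa1a rose by 0.91, 0.35 and 0.37. The count of lipoprotein genes, 8, was 5 without EAE HFHC replicate 1. The cholesteryl ester transfer gene cetp had 4.50, 11.9 and 9.28 CPM in EAE HFHC larvae, against 16.9, 17.2 and 18.9 CPM in control ND larvae and fell by 1.05 (edgeR adjusted p = 0.0146), a call lost without EAE HFHC replicate 1, its lowest sample (0.0532).

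Adipocyte markers were measured only in part, since 4 of the 16, adipoqa, lepa, lepb and plin1, had too few counts to be tested. Of the 12 tested, 4 were higher and 1 was lower, with a median of 0.12. The median became 0.18 if control ND replicate 2 was dropped and 0.076 if replicate 3 of that group was. The lipid droplet gene cidec had 11.4, 12.9 and 13.9 CPM in EAE HFHC larvae, against 5.28, 6.11 and 7.01 CPM in control ND larvae. It was above control ND in every sample (log2 fold change 1.03, standard error 0.13, edgeR adjusted p = 7.88e-05). The adipocyte regulator gene pparg rose by 0.52 (edgeR adjusted p = 0.0144), a call that was lost without EAE HFHC replicate 1 (0.0655), control ND replicate 1 (0.0628) or control ND replicate 3 (0.0520). The fatty acid carrier gene fabp11b had 1.199, 1.12 and 1.003 CPM in EAE HFHC larvae, against 2.96, 5.35 and 2.43 CPM in control ND larvae, all low, and fell (log2 fold change -1.63, standard error 0.32, edgeR adjusted p = 0.00329), while its paralog fabp11a, far more abundant by count, had 86.5, 87.3 and 95.4 CPM in EAE HFHC larvae, against 81.1, 84.0 and 70.0 CPM in control ND larvae and did not pass (log2 fold change 0.20, standard error 0.086, edgeR adjusted p = 0.132). The count of 5 was 2 without control ND replicate 3 and 3 without EAE HFHC replicate 3 or control ND replicate 1.

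Bile acid genes rose for 8 of 17 and fell for 1, with a median of 0.42. Bile acids are made from cholesterol in liver and recovered in gut. The bile salt export pump gene abcb11b (ENSDARG00000070078, chromosome 11 from 13165966 to 13211184) had 101, 98.1 and 95.4 CPM in EAE HFHC larvae, against 63.9, 56.6 and 57.0 CPM in control ND larvae. All EAE HFHC samples were higher (log2 fold change 0.73, standard error 0.061, edgeR adjusted p = 2.21e-06). The repressor gene nr0b2a, a target of the bile acid receptor, had 74.6, 70.0 and 65.8 CPM in EAE HFHC larvae, against 32.0, 40.2 and 42.9 CPM in control ND larvae, again without overlap (log2 fold change 0.86, standard error 0.13, edgeR adjusted p = 0.000520). The hydroxylase gene cyp27a7 and the transporter gene slc51a rose by 0.74 and 0.83. The rate-limiting enzyme gene cyp7a1 had 46.2, 53.2 and 57.5 CPM in EAE HFHC larvae, against 57.0, 79.3 and 78.5 CPM in control ND larvae, with overlap (log2 fold change -0.46, standard error 0.16, edgeR adjusted p = 0.0648).

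Hepatocyte markers did not move one way, with 3 of 19 higher, 3 lower and a median of -0.078. The median turned to 0.015 if EAE HFHC replicate 2 was dropped, and was -0.13 if replicate 1 of that group was and -0.0070 if control ND replicate 2 was. The transthyretin gene ttr had 23.1, 17.9 and 22.0 CPM in EAE HFHC larvae, against 8.97, 12.9 and 10.5 CPM in control ND larvae, higher in every EAE HFHC sample (log2 fold change 0.97, standard error 0.17, edgeR adjusted p = 0.00138). The hemopexin gene hpx, whose product binds heme, had 0.250, 0.791 and 0.301 CPM in EAE HFHC larvae, against 3.82, 16.6 and 5.70 CPM in control ND larvae. It was lower in every EAE HFHC sample and near 0, with a wide spread among the control ND samples (log2 fold change -4.19, standard error 0.74, edgeR adjusted p = 0.00147). The serpin gene serpina1l fell by 0.46. The summed level of the hepatocyte list was 7019 to 7596 TPM in EAE HFHC larvae, against 6128 to 7318 TPM in control ND larvae, which overlapped. The part of liver content in the results for ahsg1, ahsg2 and abcb11b was not tested.

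Of 28 enterocyte markers 13 were higher, none was lower and 15 did not pass, with a median of 0.32 that was 0.20 without control ND replicate 1. They included transporters and enzymes of the brush border. The peptide transporter gene slc15a1b had 145, 148 and 133 CPM in EAE HFHC larvae, against 79.5, 78.6 and 93.2 CPM in control ND larvae. The groups did not overlap (log2 fold change 0.76, standard error 0.10, edgeR adjusted p = 0.000177). The peptidase gene mep1b, the chitinase gene chia.1 and the glucose transporter gene slc5a1 rose by 0.87, 0.64 and 0.84. The fatty acid-binding gene fabp2, a defining marker, had 727, 643 and 759 CPM in EAE HFHC larvae, against 671, 804 and 884 CPM in control ND larvae, which overlapped (log2 fold change -0.15, standard error 0.098, edgeR adjusted p = 0.333). Summed over the enterocyte list the level was 8779 to 9829 TPM in EAE HFHC larvae, against 6747 to 8522 TPM in control ND larvae, and the part of gut content in the rise of slc5a1 and of the cholesterol genes was not tested.

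Of 20 exocrine pancreas markers 1 was higher, with a median of 0.20, and their summed level ran from 13770 to 24636 TPM in EAE HFHC larvae, against 16416 to 19987 TPM in control ND larvae. That list spread widely among the EAE HFHC samples, and the count of calls was 0 without EAE HFHC replicate 2, control ND replicate 1 or control ND replicate 3 and 9 without EAE HFHC replicate 1. The median became -0.036 on dropping EAE HFHC replicate 3, 0.42 on dropping replicate 1 of that group and 0.11 on dropping its replicate 2, and 0.12 on dropping control ND replicate 3. Goblet cell markers gave 2 higher and 1 lower of 7, and the mucin gene muc5.1 rose by 0.31. Of 28 genes of basement membrane and epidermis 4 were higher and 1 was lower, with a median that lay between 0.010 and 0.069 over the settings tried, and the plakophilin gene pkp3a of skin cell junctions rose by 0.62. The 3 goblet cell calls were 1 without EAE HFHC replicate 2 or control ND replicate 3. The 5 epidermal calls were 2 without EAE HFHC replicate 3, control ND replicate 1 or control ND replicate 2, and 3 without EAE HFHC replicate 1 or 2.

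Glucocorticoid-responsive genes were higher for 10 of 20 and lower for 2, with a median of 0.37. The zinc finger gene klf9 had 45.3, 48.2 and 45.2 CPM in EAE HFHC larvae, against 25.6, 22.6 and 21.6 CPM in control ND larvae. It was higher in each EAE HFHC sample (log2 fold change 0.996, standard error 0.087, edgeR adjusted p = 3.34e-06). The genes errfi1a and per1a rose by 0.66 and 0.98, and the metallothionein gene mt2 fell by 0.37. The receptor gene nr3c1 had a log2 fold change of 0.047 (edgeR adjusted p = 0.651). The median of the list was 0.61 in control HFHC larvae, 0.18 in EAE ND larvae and 0.37 in EAE HFHC larvae, each against control ND. The count of 12 lay between 7 and 11 with any 1 of the 6 samples left out, lowest without EAE HFHC replicate 2.

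The circadian clock list had 22 higher genes and no lower gene of 42, with a median of 0.27. The clock genes run in daily cycles, and the hour of collection of each group is not given in the sources used here. The repressor gene per2 had 135, 137 and 136 CPM in EAE HFHC larvae, against 98.0, 93.4 and 96.6 CPM in control ND larvae. Each group was tight and the groups were apart (log2 fold change 0.50, standard error 0.058, edgeR adjusted p = 4.23e-05). The nuclear receptor genes nr1d2a and rorcb rose by 0.57 and 1.24. The single exposures gave medians of 0.24 in control HFHC and 0.051 in EAE ND larvae.

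Genes of glucose use moved both ways, with 6 of 35 higher and 5 lower. The median of 0.018 was below 0 without EAE HFHC replicate 3 (-0.016), control ND replicate 1 (-0.023) or control ND replicate 3 (-0.053). The kinase gene pfkfb4b, which sets the level of a regulator of glycolysis, had 75.3, 78.4 and 74.9 CPM in EAE HFHC larvae, against 48.7, 43.1 and 44.8 CPM in control ND larvae. It was higher in every EAE HFHC sample (log2 fold change 0.74, standard error 0.068, edgeR adjusted p = 5.00e-06). Its relative pfkfb3 and the glucose-6-phosphatase gene g6pca.2, of the last step of glucose release, rose by 0.47 and 0.54. The liver pyruvate kinase gene pklr had 124, 111 and 106 CPM in EAE HFHC larvae, against 189.5, 195 and 161 CPM in control ND larvae, lower in all EAE HFHC samples (log2 fold change -0.68, standard error 0.095, edgeR adjusted p = 0.000240). The aldolase gene aldoab fell by 0.36. This count of 11 was 7 without EAE HFHC replicate 2 or control ND replicate 3 and 7 with limma.

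In the insulin, growth hormone and IGF axis 10 of 34 genes were higher and 1 was lower, with a median of 0.20. The forkhead gene foxo1b, which insulin signalling holds out of the nucleus, had 5.19, 5.67 and 4.61 CPM in EAE HFHC larvae, against 1.27, 1.69 and 1.87 CPM in control ND larvae. Levels were low and the groups apart (log2 fold change 1.65, standard error 0.18, edgeR adjusted p = 2.37e-05). The related gene foxo3b, the receptor substrate gene irs2b and the regulatory subunit gene pik3r3a rose by 0.40, 0.66 and 0.48. The study chose foxo1b, irs1, irs2b, igfbp1a and pik3r3a on these larvae for their response to the HFHC diet. Their values, and their share in the count and median of this list, are not independent evidence. The insulin gene ins had 30.8, 26.9 and 34.8 CPM in EAE HFHC larvae, against 20.4, 27.22 and 24.3 CPM in control ND larvae, with overlap (log2 fold change 0.36, standard error 0.12, edgeR adjusted p = 0.0543).

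Of the ATF4 and amino acid response genes 6 of 34 were higher and 1 was lower, with a median of 0.10. The glutathione-degrading enzyme gene chac1 had 553, 585 and 573 CPM in EAE HFHC larvae, against 408, 380.1 and 374 CPM in control ND larvae, apart in every sample (log2 fold change 0.56, standard error 0.086, edgeR adjusted p = 0.000552). The factor gene atf4b, its target trib3 and the amino acid exchanger gene slc3a2b rose by 0.44, 0.55 and 0.43, and the cystathionine lyase gene cth fell by 0.29. The asparagine synthetase gene asns, a common target, had a log2 fold change of -0.077 (edgeR adjusted p = 0.488). Among 32 genes of endoplasmic reticulum chaperones 1 was higher and 3 were lower, with a median of -0.040. Dropping EAE HFHC replicates 1, 2 and 3 in turn made that median -0.076, -0.027 and -0.024, and limma gave -0.013. The chaperone gene hspa5 had a log2 fold change of -0.10 (edgeR adjusted p = 0.332). The 4 calls became 0 without EAE HFHC replicate 2, control ND replicate 1 or control ND replicate 2, and also with limma, and 1 without EAE HFHC replicate 3 or control ND replicate 3.

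Genes of cytosolic protein folding were lower. Of 27 chaperone genes 15 fell and none rose, with a median of -0.18. That median was -0.24 in control HFHC and -0.050 in EAE ND larvae, each against control ND. The heat shock protein gene hsp90aa1.1, which helps myosin to fold in muscle, had 481, 448 and 428 CPM in EAE HFHC larvae, against 793, 816 and 699.8 CPM in control ND larvae. All EAE HFHC samples were far below the control ND samples (log2 fold change -0.77, standard error 0.079, edgeR adjusted p = 1.61e-05). The co-chaperone gene ahsa1a, an activator of that protein, fell by 1.06 and dnaja1 fell by 0.29. Of the subunits of the ring that folds actin and tubulin, cct7 fell by 0.23. The count of 15 lay between 4 and 12 with any 1 of the 6 samples left out, lowest without EAE HFHC replicate 2, where cct7 itself was not called (edgeR adjusted p = 0.0555).

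Most genes of the other housekeeping lists had small negative log2 fold changes, of which few passed. Over all genes tested the median was 0.015 and 5.64% were lower. The ribosomal, respiratory chain and proteasome lists had 1.32%, 5.08% and 0% lower, none above the share of all genes. In the order below, the medians in control HFHC larvae against control ND were -0.091, -0.14, -0.15 and -0.14. In EAE ND larvae they were 0.014, -0.0024, -0.017 and 0.042. Of 76 cytosolic ribosomal protein genes 71 had a negative value and 1 was lower, with a median of -0.054. That median was -0.10 if EAE HFHC replicate 3 was dropped, -0.035 if replicate 2 of the group was, -0.025 if its replicate 1 was, and -0.029 with limma. Of 59 respiratory chain genes 52 were negative and 3 were lower, with a median of -0.075 that became -0.11 if EAE HFHC replicate 3 was dropped. Of 39 proteasome genes 35 were negative and none was called by edgeR, DESeq2 or limma, with 8 at an unadjusted p under 0.05 in edgeR and a median of -0.082 that became -0.053 with limma. DNA replication and cell cycle genes were negative for 40 of 51, lower for 6 and higher for none, with a median of -0.090. The 6 make 11.8% of the list, beside 5.64% over all genes. That count lay between 1 and 3 with any 1 of the 6 samples left out, and the 3 respiratory calls between 0 and 2. The ribosomal call was lost without EAE HFHC replicate 1 or 2 or control ND replicate 1 or 2.

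Of 42 genes of collagen, cartilage and matrix, 21 were lower and none was higher, with a median of -0.26. Control HFHC larvae had a median of -0.15 and EAE ND larvae one of -0.12, both against control ND. The cartilage collagen gene col9a1b (ENSDARG00000031483, chromosome 13 from 38993570 to 39046663) had 23.1, 27.9 and 26.97 CPM in EAE HFHC larvae, against 59.8, 51.0 and 52.7 CPM in control ND larvae. The highest EAE HFHC sample lay far under the lowest control ND sample (log2 fold change -1.07, standard error 0.094, edgeR adjusted p = 3.59e-06). The matrilin gene matn3a (ENSDARG00000069245, chromosome 20 from 43862981 to 43878466) had 13.1, 15.1 and 15.7 CPM in EAE HFHC larvae, against 28.0, 31.9 and 29.7 CPM in control ND larvae. It fell without overlap (log2 fold change -1.03, standard error 0.093, edgeR adjusted p = 5.00e-06). The hypertrophic cartilage gene col10a1a had 1370.0, 1313 and 1398 CPM in EAE HFHC larvae, against 1997, 2147 and 1872 CPM in control ND larvae. It was the most abundant of the named genes of this list by count and lower in every EAE HFHC sample (log2 fold change -0.56, standard error 0.088, edgeR adjusted p = 0.000624). The link protein gene hapln1a fell by 0.46, and the summed level of the list was 9807 to 10058 TPM in EAE HFHC larvae, against 10979 to 12294 TPM in control ND larvae.

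Skeletal muscle markers were lower for 21 of 58 and higher for 1, with a median of -0.17. With a single exposure the median was -0.12 in control HFHC and -0.14 in EAE ND larvae, both against control ND. The fast myosin-binding protein gene mybpc2b had 262, 251 and 277 CPM in EAE HFHC larvae, against 379, 395 and 347 CPM in control ND larvae. The groups did not overlap (log2 fold change -0.51, standard error 0.060, edgeR adjusted p = 5.05e-05). Its paralog mybpc2a fell by 0.57, the slow form mybpc1 fell by 0.36, and the actin gene acta1a fell by 0.66. The gene that rose was tcap, at the Z-disc, by 0.45 (edgeR adjusted p = 0.0268), a call lost without EAE HFHC replicate 1 (0.0616), EAE HFHC replicate 3 (0.106), control ND replicate 2 (0.0518) or control ND replicate 3 (0.0985). The summed level of the muscle list overlapped, at 132395 to 142068 TPM in EAE HFHC larvae, against 130586 to 146579 TPM in control ND larvae. The part of muscle and skeletal content in the chaperone result was not tested.

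**Figure D5:**
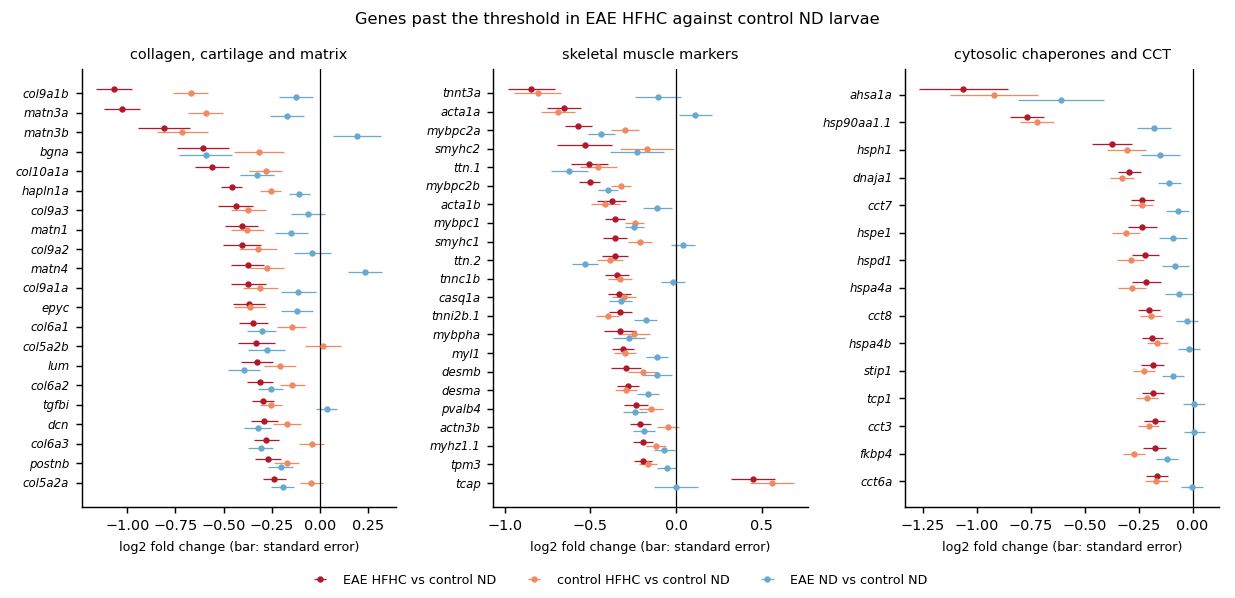
Log2 fold changes with standard errors of every gene past the threshold in the lists of collagen, cartilage and matrix (21 genes), skeletal muscle (22) and cytosolic chaperones (15). For each gene EAE HFHC against control ND stands above control HFHC against control ND and EAE ND against control ND, and the 3 comparisons share the control ND samples. The EAE HFHC values are below 0 for all genes but tcap.

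Neuronal markers were higher for 12 of 68 and lower for 2, with a median of 0.19. The synaptic adhesion gene nrxn2a had 22.0, 25.2 and 25.9 CPM in EAE HFHC larvae, against 17.4, 14.8 and 17.3 CPM in control ND larvae, apart in every sample (log2 fold change 0.55, standard error 0.10, edgeR adjusted p = 0.00212). The paralog nrxn3a rose by 0.42, and the tubulin gene tubb5 fell by 0.35. The count of 14 lay between 4 and 13 with any 1 of the 6 samples left out, lowest without control ND replicate 2, the sample at the end of the second principal component, and was 5 with limma on log2(TPM + 1) and 22 with only the 6 samples. The median of the list was 0.24 in control HFHC and 0.32 in EAE ND larvae against the same controls.

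In the eye, 3 of 32 photoreceptor genes were higher and 9 were lower. The median of -0.11 was -0.072 if EAE HFHC replicate 1 was dropped, and -0.17 if replicate 2 or 3 of that group or control ND replicate 2 was. With a single exposure the median of the list was 0.035 in control HFHC and 0.20 in EAE ND larvae, both against control ND. Of the 3 genes that rose, grk1a kept its call in every setting tried. The visual arrestin gene sagb lost it without EAE HFHC replicate 3, control ND replicate 2 or control ND replicate 3 (highest edgeR adjusted p 0.135). The rod opsin gene rho, at an adjusted p of 0.0492 in edgeR, lost it with RLE factors, with limma, with only the 6 samples and without each sample but control ND replicate 1. The genes that fell included 5 cone opsin genes, of which opn1mw1 and opn1mw2 each kept the call under 7 of 14 alternatives. The rod kinase gene grk1a had 28.9, 28.8 and 32.2 CPM in EAE HFHC larvae, against 24.5, 21.1 and 22.1 CPM in control ND larvae. Its groups did not overlap (log2 fold change 0.41, standard error 0.090, edgeR adjusted p = 0.00634). Opsin genes have near-identical copies, so their counts are uncertain. The count of 12 lay between 2 and 8 with any 1 of the 6 samples left out, lowest without EAE HFHC replicate 1 or 2, and was 3 with limma. Lens crystallins gave 2 lower genes of 23, with a count of 0 without EAE HFHC replicate 1 or control ND replicate 2 and 1 without EAE HFHC replicate 2, EAE HFHC replicate 3 or control ND replicate 1.

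Erythrocyte genes were split. Of 21 tested 5 were higher and 2, hbaa1 and hbba1, were lower, with a median of 0.23. That median was 0.084 in control HFHC and -0.24 in EAE ND larvae, both against control ND. The heme synthesis gene alas2 had 144, 170.2 and 144 CPM in EAE HFHC larvae, against 102, 111 and 95.4 CPM in control ND larvae, without overlap (log2 fold change 0.57, standard error 0.10, edgeR adjusted p = 0.00139). The anion exchanger gene slc4a1a of the red cell membrane and the nucleotidase gene nt5c2l1 rose by 0.52 and 0.73. The embryonic globin gene hbae3, far more abundant than hbaa1 by count, had 272, 337 and 322 CPM in EAE HFHC larvae, against 289.8, 216 and 248 CPM in control ND larvae, which overlapped (log2 fold change 0.30, standard error 0.12, edgeR adjusted p = 0.101).

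Leukocyte and inflammation markers rose for 19 of 27 and fell for 1, with a median of 0.46. In the single exposures that median was 0.41 in control HFHC and -0.076 in EAE ND larvae, both against control ND. The macrophage scavenger receptor gene marco had 18.8, 17.3 and 21.0 CPM in EAE HFHC larvae, against 7.51, 6.60 and 8.06 CPM in control ND larvae. The lowest EAE HFHC sample lay above the highest control ND sample (log2 fold change 1.35, standard error 0.10, edgeR adjusted p = 9.27e-07). The pore protein gene mpeg1.2 of macrophages had 13.1, 13.4 and 16.0 CPM in EAE HFHC larvae, against 6.69, 7.64 and 8.67 CPM in control ND larvae, again apart (log2 fold change 0.87, standard error 0.15, edgeR adjusted p = 0.00113). The acute-phase gene crp6 and the receptor gene il6st rose by 1.81 and 0.39. As defining markers, chosen after their values were seen, the neutrophil peroxidase gene mpx rose by 0.66 (edgeR adjusted p = 0.0115) and the pan-leukocyte gene ptprc by 0.30 (edgeR adjusted p = 0.0221). Because of that choice, their rise is no test of leukocyte content. The study chose crp6, il1b, mmp9 and mmp13a on these larvae for their response to the HFHC diet, so their part in this list is not independent evidence. The list's count of 20 lay between 8 and 16 with any 1 of the 6 samples left out, lowest without EAE HFHC replicate 2. Its summed level was 870 to 989 TPM in EAE HFHC larvae, against 658 to 728 TPM in control ND larvae and 834 to 1032 TPM in control HFHC larvae.

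Complement genes were higher for 8 of 21 and lower for none, with a median of 0.26 that was 0.17 without EAE HFHC replicate 1. Against the same controls the median was 0.28 in control HFHC and -0.15 in EAE ND larvae. The terminal component gene c6 had 45.4, 43.2 and 45.3 CPM in EAE HFHC larvae, against 25.0, 26.0 and 27.7 CPM in control ND larvae, without overlap (log2 fold change 0.76, standard error 0.062, edgeR adjusted p = 1.76e-06). The protease gene masp1, of the lectin pathway, and the terminal component gene c7a rose by 0.84 and 0.49. The count of 8 lay between 3 and 5 with any 1 of the 6 samples left out, lowest without control ND replicate 3.

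The MHC and interferon list was split, with 5 of 19 genes higher and 4 lower. The genes that fell lie next to each other on chromosome 19, from mhc1uba at 7153929 to the end of psmb8a at 7225623 of GRCz10. The class I gene mhc1uba had 3.10, 4.0 and 2.36 CPM in EAE HFHC larvae, against 11.3, 10.9 and 10.7 CPM in control ND larvae, with no overlap (log2 fold change -1.79, standard error 0.27, edgeR adjusted p = 0.000500). The immunoproteasome genes psmb12 and psmb9a had 0.799, 0.791 and 1.003 CPM in EAE HFHC larvae, against 2.87, 2.35 and 1.64 CPM in control ND larvae for psmb12 and 1.35, 1.58 and 1.60 CPM in EAE HFHC larvae, against 4.10, 4.15 and 2.58 CPM in control ND larvae for psmb9a. The gene psmb12 fell by 1.35 and psmb9a fell by 1.21. All these levels are low, and the annotated spans of psmb12 and psmb9a lie within that of psmb8a, so reads may not be unique to 1 of them. Among the members that rose were the class I gene mhc1zba by 0.37, the invariant chain gene cd74b by 0.45 and the interferon signalling gene stat1a by 0.35. Over the whole list the median was 0.24 in EAE HFHC larvae, 0.28 in control HFHC larvae and -0.54 in EAE ND larvae, each against control ND.

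Genes of alcohol, xenobiotic and redox metabolism were higher for 7 of 32 and lower for 5, with a median of 0.075. Of the alcohol dehydrogenase genes other than adh8a, adh5 fell by 0.32 and adh8b fell by 0.39. Both of these calls were lost without EAE HFHC replicate 2 (0.0620 and 0.118) or control ND replicate 2 (0.0617 and 0.0961), adh5 also without EAE HFHC replicate 1 (0.0604) and adh8b also without control ND replicate 3 (0.0923). The cytochrome gene cyp1a had 68.8, 68.5 and 67.3 CPM in EAE HFHC larvae, against 69.7, 74.3 and 64.6 CPM in control ND larvae, which overlapped (log2 fold change -0.024, standard error 0.072, edgeR adjusted p = 0.865). The cytochrome gene cyp3c1, the glutathione transferase gene gsto1 and the antioxidant factor gene nfe2l2a rose by 0.53, 0.73 and 0.30. The count of 12 was 6 without EAE HFHC replicate 2.

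Retinoid genes gave 3 higher and 3 lower of 30. Each makes 10% of the list, beside 8.86% higher and 5.64% lower over all genes, so the share of higher genes was near that of all genes. Beside cyp26a1, the related hydroxylase gene cyp26c1 and the retinaldehyde reductase gene dhrs3a rose, by 0.50 and 0.54. The retinoic acid carrier gene crabp2b had 57.6, 58.6 and 58.6 CPM in EAE HFHC larvae, against 75.1, 91.3 and 77.6 CPM in control ND larvae, lower in every EAE HFHC sample (log2 fold change -0.48, standard error 0.077, edgeR adjusted p = 0.000766). The synthesis gene aldh1a2 had 105, 91.3 and 95.1 CPM in EAE HFHC larvae, against 95.9, 95.4 and 98.2 CPM in control ND larvae, with overlap (log2 fold change 0.0084, standard error 0.064, edgeR adjusted p = 0.951).

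The study chose 29 obesity-related genes on these larvae for their response to the HFHC diet. Of these 29, 26 were higher and none was lower in EAE HFHC larvae, with a median of 0.77, which is not independent evidence of that direction. Some of these genes also count in the lists above or among the leading genes. Among them are angptl4, cyp26a1, g6pca.2, foxo1b, irs2b, pik3r3a, crp6, fkbp5, per1a, per2, atf4b, trib3, insig1, srebf2, cpt1ab and pdk2b. The same holds for il1b, mmp9, mmp13a, irs1, igfbp1a, lpin1, srebf1 and nupr1. The values of all these genes there are not independent evidence either. The angiopoietin-like gene angptl6 had 7.49, 6.88 and 6.47 CPM in EAE HFHC larvae, against 1.502, 2.13 and 1.53 CPM in control ND larvae, apart in every sample (log2 fold change 2.04, standard error 0.16, edgeR adjusted p = 1.16e-06). The study also plotted ahsg1, abcb11b, gh1 and dhrs7b, which it chose on these larvae for their response to EtOH and diet. Their values in this report are therefore not independent evidence. The growth hormone gene gh1 (ENSDARG00000038185, chromosome 3 from 22197190 to 22202365) had 9.89, 7.02 and 8.62 CPM in EAE HFHC larvae, against 5.96, 12.3 and 5.86 CPM in control ND larvae, which overlapped, and did not pass (log2 fold change 0.13, standard error 0.23, edgeR adjusted p = 0.752). The dehydrogenase/reductase gene dhrs7b (ENSDARG00000075726, chromosome 3 from 15699591 to 15709597) had 1.75, 2.74 and 1.70 CPM in EAE HFHC larvae, against 1.41, 0.818 and 0.639 CPM in control ND larvae, from low levels (log2 fold change 1.17, standard error 0.35, edgeR adjusted p = 0.0320). Its call was lost without EAE HFHC replicate 2 (0.170), control ND replicate 2 (0.0804) or control ND replicate 3 (0.154).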

How the data were processed

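The larval part of the study measured poly(A) RNA of whole larvae by single-end sequencing. The submitters' notes name STAR and GRCz10. The table deposited for the larvae held raw read counts per gene symbol, and how the authors counted reads, the gene models and the use of strand are not given in the sources used here. A second table held TPM values computed by the authors, which served for summed levels and for limma. Ensembl identifiers and GRCz10 positions came from an adult liver table of the same series, matched by unique symbol for 18397 of 19657 genes. The adult liver samples were not used otherwise.

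Counts of all 12 larval samples were fitted in edgeR 4.0.16 (R 4.3.3) with a mean per group, filterByExpr and TMM factors, and tested by quasi-likelihood with Benjamini-Hochberg adjustment over all genes tested, at a threshold of 0.05. CPM values use the TMM library sizes, and each standard error was taken as the size of the log2 fold change over the root of its F statistic. Residual degrees of freedom were 8, and the common biological coefficient of variation was 7.35%. For genes with few counts, counting error can be larger than that. Columns were matched to samples through the EtOH and diet given in the labels.

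The comparison and the gene lists were chosen with earlier results of these data known. Genes were named by rule: the 8 higher and 8 lower genes with the largest change among called genes at 10 CPM or more whose groups did not overlap, the 4 in each direction with the smallest p, up to 4 called members of each list and direction, up to 6 genes in each direction apart from all 3 other groups (by the smallest of their largest p), and the 4 genes the study plots. Genes with clone names were left out, and list members that were not called may be given as values. Some genes that the rule names are not reported here. A gene "apart from all 3 other groups" had an adjusted p under 0.05 in the same direction against each of the other 3 groups. Where a gene is called apart between EAE HFHC and control ND larvae only, the samples of those groups did not overlap. The 36 lists held 1185 names, of which 1123 were in the table and 1099 were tested, with some genes in more than 1 list. Alternatives were RLE factors, DESeq2 1.42.0, other filters, limma 3.58.1 on log2(TPM + 1) and log2(TPM + 0.1), a replicate block, the 6 samples alone and leaving out each sample. The edgeR script was tested on simulated counts. Samples were not paired by replicate number. Deviations of same-numbered samples had correlations of -0.11 to -0.035 over all genes, which cannot exclude a pairing that acts on some of them.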

Additional observations from a re-analysis of the deposited data

Results flagged for a closer look

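For 6 named genes the effect of EtOH differed between the diets by the interaction term of the edgeR fit, that is, the difference of EAE HFHC and control HFHC larvae minus the difference of EAE ND and control ND larvae, on the log2 scale. Over all genes tested 50 had an interaction adjusted p under 0.05, between 15 without EAE HFHC replicate 1 and 386 without control HFHC replicate 2. Leaving out each of the 12 larval samples was chosen after seeing the data.

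The interaction was -0.94 for fkbp5 (edgeR adjusted p = 0.00483), where EtOH went with -0.44 on HFHC and 0.50 on ND. It was -0.61 for pfkfb4b (edgeR adjusted p = 0.0145), with -0.31 on HFHC and 0.30 on ND. Both calls were kept without each of the 12 samples in turn. The rhophilin gene rhpn2 had -0.55 (edgeR adjusted p = 0.0225), with -0.30 on HFHC and 0.26 on ND, and lost the call without EAE HFHC replicate 1 or 2 (highest adjusted p 0.0794).

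The other 3 kept the call without 6 of the 12 samples each. The growth hormone gene gh1 had 1.85 (edgeR adjusted p = 0.0413), with 0.49 on HFHC and -1.36 on ND, and lost the call without EAE ND replicate 1 or 3, control HFHC replicate 1 or any EAE HFHC sample (highest adjusted p 0.113). The transthyretin gene ttr had 1.40 (edgeR adjusted p = 0.0335), with 0.52 on HFHC and -0.88 on ND, and lost it without control ND replicate 2, EAE ND replicate 1 or 3, control HFHC replicate 1, or EAE HFHC replicate 1 or 3 (highest adjusted p 0.101). The forkhead gene foxq1a had 0.62 (edgeR adjusted p = 0.0306), with 0.21 on HFHC and -0.41 on ND, and lost it without control ND replicate 2, EAE ND replicate 3, control HFHC replicate 3 or any EAE HFHC sample (highest adjusted p 0.0853).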

How the results depend on the processing

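The count of 2849 genes between EAE HFHC and control ND larvae stayed within 1.5 times under RLE factors, DESeq2, both other filters, limma and the 6 samples alone (2160 to 3060 genes). It was 960 with a log2 fold change over 0.5 in size, 1176 at an adjusted p under 0.01, and 1558 to 2050 with a sample left out. The 11 genes apart from all 3 other groups became 37 with DESeq2, 30 with no filter on low counts and 1 with limma at either pseudocount, and 0 to 18 with any 1 of the 12 larval samples left out, those of control HFHC and EAE ND larvae chosen after seeing the data. The cause of these shifts was not tested. With the replicate block the counts were 2667 and 4. The deviations of same-numbered samples had correlations of -0.11 to 0.076 over the 6 pairs of larval groups. Such a correlation over all genes cannot exclude a pairing that acts on some of them.

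The share of higher genes among those called was 61.1%, 77.2% with a log2 fold change over 0.5 in size, and 56.0% to 68.6% under the other alternatives. The median over all genes stayed between 0.004 and 0.042. Of 176 named genes 175 were called, 123 of them under every alternative and 52 not under 1 or more. The sign turned for gh1 alone, at -0.024 without control ND replicate 1 and -0.084 without control ND replicate 3, and it reached 0.52 without control ND replicate 2. Medians of the lists were computed for each setting after seeing the data, and those of the lens list (-0.022, highest 0.069 without control ND replicate 1) and the retinoid list (-0.0093, highest 0.033 without EAE HFHC replicate 2) turned sign. The medians of the hepatocyte, exocrine pancreas and glucose use lists turned sign as well, as given with those lists. With 3 samples a group and pools of larvae, small changes of low genes are the least certain.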
